A study of Mus musculus with 2 samples.

Results

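Mir124a-1, Mir124a-2, Mir124a-3, Mir137, Mir128-1, Mir128-2, Mir218-1, Mir218-2, Mir132 and Mir212 are miRNA genes known from differentiating or active neurons. They were chosen by name from that knowledge, with earlier results of these data known, and are 10 of the 1973 genes counted. Small RNA under 30 nt was sequenced from forebrain of B6NCrl mouse embryos, healthy and of both sexes, at embryonic day 10.5. There is 1 group of 2 libraries, numbered in the labels as biological replicates: replicate 1 pooled 69 embryos and replicate 2 pooled 51. The embryos carried no named transgene or treatment, and no other age or tissue was compared.

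A miRNA is cut from a hairpin RNA into a short duplex, and the arm that is kept guides repression of messenger RNAs that pair with its seed. miR-124 is the hallmark miRNA of neurons and represses genes of non-neuronal cells. miR-137 and miR-128 accumulate as neurons mature, miR-218 is known from motor neurons and lies in genes for Slit guidance proteins, and miR-132 and miR-212 are induced by CREB in active neurons. At this age the forebrain wall consists mostly of dividing neuroepithelium, with the first neurons just forming.

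The mature sequences show which members can be counted in full and which share their letters. Of the 10 members, 7 were matched by symbol in RefSeq's GRCm38.p6 miRNA table, the same build as mm10; Mir124a-1, Mir124a-2 and Mir124a-3 were not matched. The 5 main arms below are given 5′ to 3′ with the seed, bases 2 to 8, in capitals.
miR-137-3p: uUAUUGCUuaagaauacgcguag
miR-132-3p: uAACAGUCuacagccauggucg
miR-212-3p: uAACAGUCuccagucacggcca
miR-128-3p: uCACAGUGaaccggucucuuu
miR-218-5p: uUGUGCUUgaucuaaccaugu

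miR-132-3p and miR-212-3p share their seed and their first 9 bases, and are identical at 17 of 22 positions. No other mature miRNA of the table carries that seed. The whole mature sequence of each was found in 1 hairpin of 1005, so within that table Mir132, Mir212 and Mir137 share no mature arm with another hairpin; other places in the genome were not searched. miR-128-3p and miR-218-5p were each found in 2 hairpins, Mir128-1 with Mir128-2 and Mir218-1 with Mir218-2. The run of letters that both Mir128 hairpins share around miR-128-3p is 23 bases, and the run both Mir218 hairpins share around miR-218-5p is 22 bases. A read that lies inside those runs maps to both loci and was given to no gene, so the counts of Mir128 and Mir218 loci, like those of the Mir124a loci, are lower limits.

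The opposite arms differ between loci, each being found in 1 hairpin, and are shown because they are letters through which a single locus can be counted.
miR-128-1-5p: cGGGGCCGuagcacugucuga
miR-128-2-5p: gGGGGCCGaugcacuguaagaga
miR-218-1-3p: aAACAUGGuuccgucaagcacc
miR-218-2-3p: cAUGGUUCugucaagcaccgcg
The deposited count of a gene does not separate arms, so how much of each locus came from these letters is not known.

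In replicate 1 there were 3256070 gene counts of 8559330 reads, and in replicate 2 there were 3574530 of 9664755. Reads mapped to several places numbered 2577249 and 2780180, a separate tally of 30.1% and 28.8% of all reads that the gene counts do not hold. Levels are in CPM, the count of a gene scaled by the total of the gene counts of its library. Coordinates are 1-based mm10 positions from GENCODE M21, in which 5 of the 10 members have another version of their identifier than in the files.

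Each of the 10 genes had counts in both libraries, and together they made up a very small part of the counts given to genes. Their summed share was 0.0797% in replicate 1 (95% exact Clopper-Pearson interval 0.0767 to 0.0829) and 0.0605% in replicate 2 (0.0579 to 0.0631), with a mean of 0.0701% ± 0.0136 (SD, n = 2). These intervals cover counting error alone and hold no variation between libraries. PCR copies of a molecule are counted as separate reads, so the intervals can be too narrow even for counting error. Mir137 alone held 61.2% ± 2.43 of the counts of the 10 genes, and Mir137, Mir132 and Mir212 together held 78.5% ± 2.03. Since the 7 other genes are lower limits, these 2 shares are upper limits. For the same reason the summed count of the 10 genes is a lower limit, which the intervals above do not cover. In this bulk tissue fewer cells that make a miRNA and less of it per cell cannot be told apart.

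**Figure D1:**
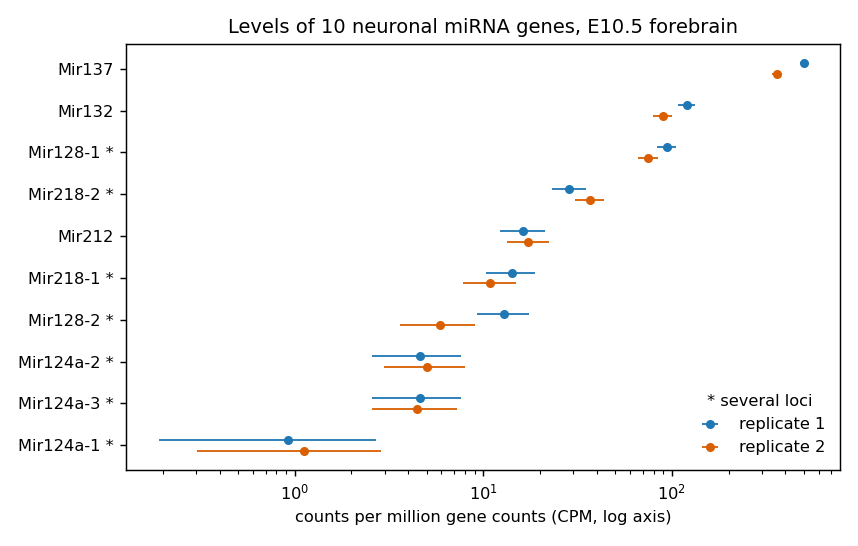
Level of each of the 10 miRNA genes in replicate 1 (blue) and replicate 2 (orange), in CPM on a log axis, with 95% exact intervals for counting error; a star marks genes of several loci, counted as a lower limit. Mir137 lies above the other 9 genes in both libraries, and the 3 Mir124a loci lie lowest.

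Mir137 (ENSMUSG00000065569.1, chr3:118433857-118433929, plus strand) lies in an exon of the processed transcript Gm26871. Its product is known to regulate progenitor division and the growth of dendrites in maturing neurons. It had 1633 counts in replicate 1 and 1285 in replicate 2, or 502 and 359 CPM. Both libraries stood above every other member, and the mean of 431 ± 100 CPM (SD, n = 2) was 4.12 times that of Mir132. Even so, 141 of the 1973 genes had a higher mean level.

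Mir132 (ENSMUSG00000065537.1, chr11:75173682-75173747) and Mir212 (ENSMUSG00000065590.1, chr11:75173388-75173478) lie 204 bases apart on the plus strand, both in an intron of the processed transcript 1700016P03Rik. They are made from one primary transcript and are known for their part in dendrite growth and synaptic plasticity. Mir132 had 390 and 319 counts, or 120 and 89.2 CPM. Mir212 had 53 and 62 counts, or 16.3 and 17.3 CPM. Although they share a seed and a host, Mir132 was counted 7.36 times as often as Mir212 in replicate 1 and 5.15 times in replicate 2. Mir132 made up 88.0% of the pair's counts in replicate 1 (95% exact interval 84.6 to 90.9) and 83.7% in replicate 2 (79.6 to 87.3), and these intervals overlap.

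Mir128-1 (ENSMUSG00000065520.1, chr1:128202361-128202430, plus strand) is in an intron of R3hdm1, and Mir128-2 (ENSMUSG00000065441.1, chr9:112118636-112118711, minus strand) is in an intron of Arpp21, a gene of striatal and cortical neurons. Their common product miR-128 dampens excitability of adult neurons. Mir128-1 had 306 and 266 counts, or 94.0 and 74.4 CPM in replicates 1 and 2. Mir128-2 had 42 and 21 counts, or 12.9 and 5.87 CPM. Of the reads that could be placed, Mir128-1 took 87.9% in replicate 1 (95% exact interval 84.0 to 91.2) and 92.7% in replicate 2 (89.0 to 95.4), an excess of 7.29-fold and 12.7-fold. The split holds for placed reads, and how the shared miR-128-3p divides between the loci was not tested.

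Mir218-1 (ENSMUSG00000065603.1, chr5:48223942-48224051) and Mir218-2 (ENSMUSG00000065583.1, chr11:35616816-35616925) lie on the plus strand in introns of Slit2 and Slit3, which encode secreted repellents of growing axons. Mir218-2 had 93 counts in replicate 1 and 131 in replicate 2, or 28.6 and 36.6 CPM. Mir218-1 had 46 and 39 counts, or 14.1 and 10.9 CPM. The Slit3 copy was the higher in both libraries and the loci did not overlap, with Mir218-2 at 66.9% of the pair's counts in replicate 1 (95% exact interval 58.4 to 74.6) and 77.1% in replicate 2 (70.0 to 83.1). Again this describes placed reads.

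**Figure D2:**
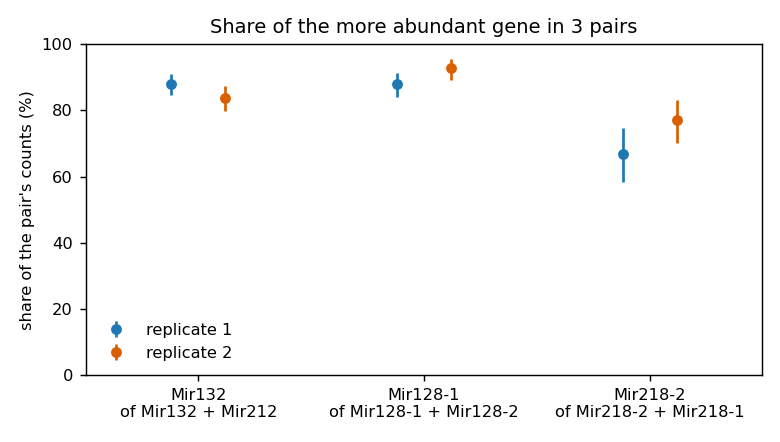
Share of the more abundant gene in the counts of each pair, in percent, for replicate 1 (blue) and replicate 2 (orange) with 95% exact intervals. All 6 shares lie between 66.9% and 92.7%, and the intervals of the libraries overlap in each pair.

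The Mir124a loci had the fewest counts. Mir124a-2 (ENSMUSG00000093073.1, chr3:17795662-17795770), which overlaps part of an exon of the long non-coding gene Mir124-2hg, had 15 and 18 counts, or 4.61 and 5.04 CPM. Mir124a-3 (ENSMUSG00000065454.1, chr2:180894040-180894107), which reaches into an exon of Gm27032, had 15 and 16 counts, or 4.61 and 4.48 CPM. Mir124a-1 (ENSMUSG00000065597.1, chr14:64590657-64590741), inside an exon of Mir124a-1hg, had 3 and 4 counts, or 0.921 and 1.12 CPM. All 3 lie on the plus strand. Summed over the loci this came to 10.1 CPM in replicate 1 and 10.6 CPM in replicate 2, a mean of 10.4 ± 0.35 (SD, n = 2). Because all 3 are loci of the same miRNA and multiply mapped reads were set aside, these counts do not measure how much miR-124 the tissue held.

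By mean level the members ran from Mir137 through Mir132, Mir128-1, Mir218-2, Mir212, Mir218-1, Mir128-2, Mir124a-2 and Mir124a-3 to Mir124a-1. This is the order of placed reads. Genes of several loci are lower limits, so a step down to such a gene, as from Mir212 to Mir218-1, does not rank full levels. Libraries overlapped between Mir132 and Mir128-1, between Mir218-1 and Mir128-2, and between Mir124a-2 and Mir124a-3, so those neighbours were not separated by the spread between replicates. The remaining 6 neighbouring steps did not overlap, and no test of a step was run. Of these 6, the step from Mir128-2 to Mir124a-2 measured 4.57 CPM and was smaller than the summed SDs of both genes, 5.27 CPM. Levels are per gene, since a read is about as long as a mature arm. Divided by hairpin length, Mir128-2 passed Mir218-1 and Mir124a-3 passed Mir124a-2, and no other place in the order changed.

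The genes nearest in level were named by the distance of their log2(CPM + 1) values over the 2 libraries. Mir137 was closest to Mir187 (distance 0.01), which had 1618 and 1288 counts. Mir128-1 was closest to Mirlet7f-2 (0.11), Mir132 to Mir702 (0.23), Mir212 to Mir3080 (0.05), Mir218-1 to Mirlet7a-2 (0.12) and Mir218-2 to Mir30c-2 (0.11). Mir128-2 was closest to Mir1b (0.24), and Mir124a-2 and Mir124a-3 were both closest to Mir6935 (0.07). The second nearest were Mir5099, Mir488, Mir6944, Mir147, Mir3076, Mir3058, Mir1948, Mir124a-3 and Mir3572 for Mir137, Mir128-1, Mir132, Mir212, Mir218-1, Mir218-2, Mir128-2, Mir124a-2 and Mir124a-3 in turn. This is likeness in level over 2 libraries and nothing more.

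A list of other miRNAs known from neurons had a higher sum than these 10 genes, with single genes of both lists overlapping. In the list of 16 other neuronal miRNA genes the sum was 24.5 ± 6.19 times that of the members (SD, n = 2), or 11.0 ± 2.31 times without Mir127, an alternative chosen after seeing the data, and its median gene had 173 CPM against 14.7 CPM for the members. Of the 16 genes, 5 lay above Mir137 and 11 below it, and 6 lay below Mir132. Mir127, an imprinted miRNA of the Dlk1-Dio3 region, led with 9170 ± 883 CPM. Mir134 of the same region, known for limiting dendritic spine size, followed with 2304 ± 249 CPM. The list's other genes, among them Mir433 (1678 ± 155 CPM) and Mir485 (546 ± 31.9 CPM), were not sorted by region. A sum without all genes of the Dlk1-Dio3 region was not computed, so both folds describe this list and not neuronal miRNAs in general. Mir153, which targets synaptic vesicle release genes, had 1693 ± 27 CPM. Mir138-1 and Mir138-2, loci of another dendritic spine regulator, had 75.9 ± 1.28 and 116 ± 2.30 CPM, in the range of Mir132 and Mir128-1. The lowest were Mir383 with 3.74 ± 2.52 CPM and Mir129-1 with 2.68 ± 1.42 CPM. Of this list 6 genes are of several loci, against 7 of the 10 members.

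Genes of the neural progenitor list stood higher still. Its 13 counted genes exceeded the 10 members by 7.46 ± 0.17 on the log2 scale of summed counts (SD, n = 2), or 177 ± 20.8 times. Mir130a and Mir99a led it with 31916 ± 1106 and 29039 ± 3050 CPM. Mir99b, Mir92b and Mir100 followed with 22564 ± 1380, 18228 ± 1668 and 11733 ± 1532 CPM. The excess rests largely on these genes, and whether they are particular to progenitors was not tested. Among genes of 1 locus, the progenitor list ran upward from Mir125a at 2678 ± 422 CPM, while Mir137, Mir132 and Mir212 ran from 16.8 ± 0.75 to 431 ± 100 CPM, so these ranges did not overlap. With genes of several loci left out on both sides the difference was 7.78. miR-9, a main miRNA of forebrain progenitors, is of several loci as well, and its 2 counted loci Mir9-3 and Mir9-2 had 339 and 5.58 CPM.

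**Figure D3:**
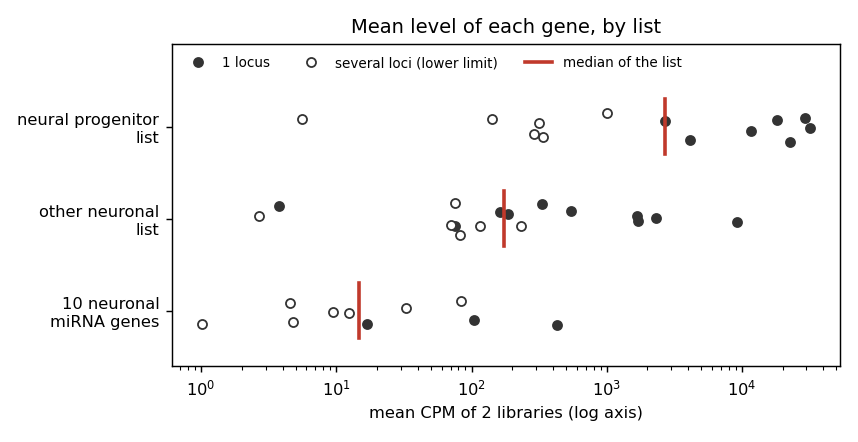
Mean CPM over 2 libraries of each gene (log axis) for the 10 neuronal miRNA genes, the other neuronal list and the neural progenitor list, with filled points for genes of 1 locus, open points for genes of several loci and a red line at the median of the list. The medians stand at 14.7, 173 and 2678 CPM, with single genes of the lists overlapping.

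Markers of other body regions and cell types were counted beside the members. Hox-cluster miRNAs, of hindbrain, cord and trunk, summed to 245 CPM in replicate 1 and 309 CPM in replicate 2 over 6 of 6 genes, led by Mir10a (115 ± 26 CPM) and Mir10b (92.6 ± 5.5 CPM). Heart and muscle miRNAs summed to 59.6 and 49.2 CPM over 9 counted genes, led by Mir208b (28.0 ± 1.23 CPM) and Mir499 (10.4 ± 0.064 CPM). Of these, Mir1a-1, Mir133a-1, Mir133a-2 and Mir133b had no count. A count of 0 allows up to 0.921 CPM in replicate 1 and 0.839 CPM in replicate 2 only where reads map to 1 place. The Mir1a and Mir133a loci are known to share mature sequences, and whether Mir133b shares reads with other loci was not checked. Their 0 counts therefore set no such limit. Mir375 of endocrine cells reached 613 and 448 CPM. Glial miRNAs summed to 1952 and 1616 CPM over 3 counted genes, led by Mir219a-1 (1647 ± 213 CPM) and Mir219a-2 (75.9 ± 27.4 CPM). The glial sum rests largely on Mir219a-1, and Mir338 had 60.8 ± 2.62 CPM. Both Mir219a genes are of several loci and so are lower limits, and whether they are particular to glia was not tested. Erythroid miRNAs summed to 693 and 792 CPM over 3 genes, led by Mir451a (654 ± 74.5 CPM) and Mir144 (56.5 ± 4.76 CPM), and the endothelial Mir126a had 29029 and 31930 CPM. The part of any of these cells in the counts of the 10 genes was not tested.

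The libraries differed for some of the 10 genes. A two-sided exact binomial test asked whether the counts of a gene divide between the libraries as their TMM-scaled sizes do, with Benjamini-Hochberg adjustment over the 401 genes whose mean count reached 10. It covers counting error and compares these 2 libraries, not conditions. Of all tested genes 43.4% were called, 19.7% higher and 23.7% lower in replicate 1. Mir124a-1 fell under the count minimum, and of the 9 other members 4 were called, all higher in replicate 1. Calls on 4 of 9 members are near the 43.4% background and are no result about the members as a group. The median log2 ratio, replicate 1 over replicate 2, was 0.31 over the 9 genes and −0.03 over all 401.

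Mir137 was higher in replicate 1 by 0.45 on the log2 scale (adjusted p = 3.2e-16, exact binomial test). Of the 271 genes whose mean count reached 100, 16 differed more in either direction, which is 5.90%. Mir132 was higher by 0.39 (adjusted p = 0.00093, exact binomial test), a size that 23 of those 271 genes exceeded. Its neighbour Mir212 had −0.12 and was not called (adjusted p = 0.87, exact binomial test), while the shares of Mir132 in the pair had overlapping intervals.

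Both miR-128 loci were higher in replicate 1. Mir128-2 had the highest ratio of the 9, at 1.09 (adjusted p = 0.0094, exact binomial test), on 42 against 21 counts. Mir128-1 was higher by 0.31 (adjusted p = 0.029, exact binomial test), but its adjusted p was 0.053 by the same exact test when genes of low count were tested too, where the call was lost. Of the miR-218 loci, Mir218-2 was at −0.39 (adjusted p = 0.11, exact binomial test) and Mir218-1 at 0.34 (adjusted p = 0.45, exact binomial test), with neither called. Mir124a-2 and Mir124a-3 were at −0.15 and 0.01.

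**Figure D4:**
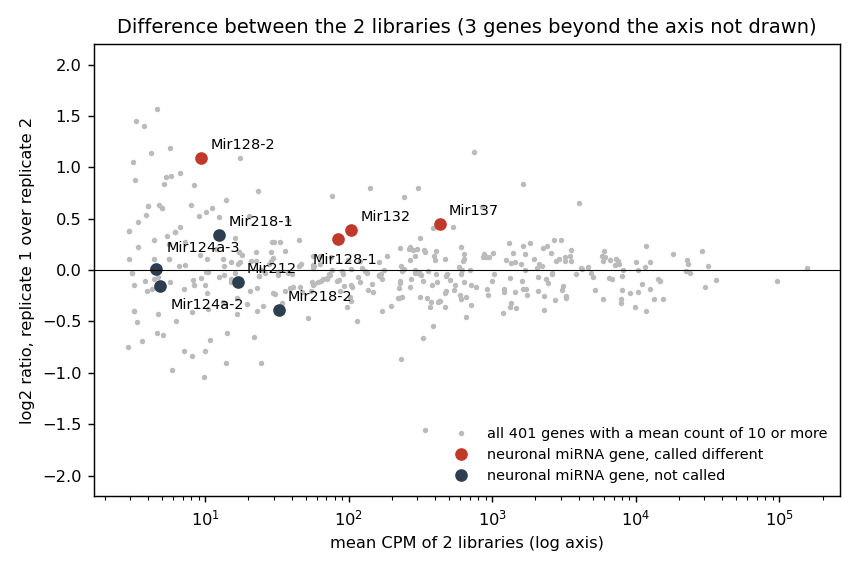
Log2 ratio of replicate 1 over replicate 2 against mean CPM (log axis) for the 401 genes whose mean count reached 10 (grey), with the 9 tested neuronal miRNA genes called different (red) or not called (dark). The 4 called genes, Mir137, Mir132, Mir128-1 and Mir128-2, lie between 0.31 and 1.09, and 3 grey genes beyond the axis are not drawn.

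The other gene lists were compared by the same test. Over all 401 tested genes 43.4% were called, 19.7% higher and 23.7% lower in replicate 1. Among the 271 genes whose mean count reached 100, tested alone, 60.1% were called. The test covers counting error, so genes of high count were called at small ratios, such as Mir130a at 0.04. Counts of calls in lists of unlike level are therefore a description. In the neural progenitor list 10 of 13 tested genes were higher in replicate 1 and none lower, with a median log2 ratio of 0.16 and Mir135a-2 highest at 0.80. In the other neuronal list 1 of 15 tested genes was higher, Mir433 at 0.16, and 4 were lower, Mir127, Mir134, Mir485 and Mir7-1, between −0.27 and −0.15, with a median of −0.07. Mir375 was higher by 0.42, close to Mir137 in size. Both glial Mir219a loci were higher as well, Mir219a-1 by 0.23 and Mir219a-2 by 0.72. The glial Mir338 was at −0.12 and was not called. Mir451a of red blood cells was lower at −0.26, but the erythroid Mir144 at 0.14 and Mir486 at −0.01 were not called. The endothelial Mir126a was lower at −0.17. None of 4 tested heart and muscle genes was called, and each had a mean count under 100. Of 5 tested Hox-cluster genes, Mir10a at −0.50 and Mir196b at −0.46 were lower in replicate 1. The part of these lists in the differences of Mir137, Mir132 and the miR-128 loci was not tested.

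Apart from the neighbouring Mir132 and Mir212, annotated miRNA genes within 10 kb were found beside Mir124a-1 and Mir137. Mir3078 lies 444 bases from Mir124a-1 on the same strand and had 16 and 6 counts, above the 3 and 4 of Mir124a-1. Gm24155, annotated as a miRNA 792 bases from Mir137, had 0 and 2 counts beside the 1633 and 1285 of Mir137. Mir3078 and Gm24155 were chosen by position after their values were seen.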

How the data were processed

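Small RNA of 2 libraries was analysed. The authors deposited raw read counts for each gene, not normalized, on assembly mm10 with genome annotation M4, per the file notes. The tools that aligned and counted the reads are named nowhere in the sources used here. Sense-strand counts, column 3, were used. Tallies that name no gene (62.0% and 63.0% of reads in replicates 1 and 2) stayed out of totals and tests.

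Of 1973 identifiers 1894 were matched to GENCODE M21 symbols without their version. CPM used the total of the gene counts. Log2 ratios used TMM factors of edgeR 4.0.16 from the 401 genes whose mean count reached 10, and a pseudocount of 0.5 counts. Benjamini-Hochberg adjusted values under 0.05 were called. The procedure was checked on simulated data, with library totals in place of TMM-scaled sizes, so the scaling was not checked. Those data held counting error alone, so the check does not cover other variation between libraries. A gene is of several loci where symbols differ in a trailing number. R 4.3.3, DESeq2 1.42.0 for size factors, Python 3.11.15, scipy 1.17.1 and matplotlib 3.10.9 were used. Alternatives changed the strand, denominator, scaling, filter, pseudocount, length, loci and libraries.

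Named are the 10 members, the 2 genes nearest to each tested member, the 2 highest genes of each list, and host genes. Other genes of the neuronal, progenitor, glial, erythroid, Hox-cluster and muscle lists and the neighbours were chosen after their values were seen. The members and lists were chosen with earlier results of these data known. Mir9-1, Mir486b, Mir126b, Mir1a-2 and Mir219b were not matched.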

Additional observations from a re-analysis of the deposited data

Results flagged for a closer look

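Reads on the strand opposite to the gene, which the levels above do not use, were found at 1 of the 10 genes. At Mir124a-3 they numbered 20 in replicate 1 and 14 in replicate 2, above the 3 counts that a count of 0 allows and similar to the 15 and 16 counts on its own strand. The 9 other members had no opposite-strand count in either library. Over all 1973 genes, 27 had more than 3 opposite-strand counts in both libraries. Counted on either strand, Mir124a-3 had 9.24 CPM in place of 4.54 CPM. The source of these reads was not tested.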

How the results depend on the processing

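The summed share of the 10 genes was 0.0682% on either strand, 0.0263% of all reads, 0.0393% of gene counts plus reads mapped to several places, and 0.0552% with the 3 genes of 1 locus alone; a wider denominator or fewer genes lowers it by construction. It ran from 0.0605% to 0.0797% when either library was left out. The log2 excess of the progenitor list was 7.78 without genes of several loci, 8.39 without the most abundant gene on both sides, and 7.34 to 7.58 with either library left out. The fold of the other neuronal list over the members was 11.0 without Mir127, chosen after seeing the data. With DESeq2 size factors, total counts or either strand 4 of 9 members were called, beside 43.4%, 44.1% and 44.1% of all tested genes. With no filter 3 of 10 were called (without Mir128-1), beside 22.5%, and with a mean count of 100, 3 of 4 (Mir128-2 then untested), beside 60.1%. Of 58 recomputed ratios of single members, 57 kept their direction and their side of the threshold, the exception being Mir128-1 with no filter. A pseudocount does not enter the test, so changing it could not move a gene across the threshold. A filter does not enter the ratio, so changing it could not alter a direction. A ratio between the libraries has no value with 1 left out. No paired analysis was possible because there is 1 group. Depth limits Mir124a-1 most, with 7 counts in all.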
